A study of Rattus norvegicus with 8 samples.

Results

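The early mevalonate pathway carries acetyl-CoA to farnesyl diphosphate, the branch point from which cells make cholesterol, ubiquinone, dolichol and the lipid anchors of prenylated proteins. The genes described here are 8 of its enzymes, from cytosolic acetoacetyl-CoA formation to farnesyl diphosphate: Acat2, Aacs, Hmgcs1, Mvk, Pmvk, Mvd, Idi1 and Fdps. They were taken by name, as every non-control probe whose gene name in the array files is one of these symbols, which gave 15 probes for 8 of the 25512 gene names on the array. All 15 probes were well above background on at least 4 arrays and were tested. The samples were liver RNA of male Sprague Dawley rats, an outbred laboratory strain, with 4 samples from rats given a diet with 60% fat for 12 weeks and 4 from rats given a normal diet for 12 weeks, called control. Both groups carry the same weight label of 180 to 200 g, with no time of weighing and no age given in the sources used here. Each sample was hybridised to 1 single-colour Agilent array. The series title names insulin resistance under a high-fat diet as its subject.

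In the pathway, a thiolase joins acetyl-CoA units to acetoacetyl-CoA, a synthase extends this to HMG-CoA, and reduction gives mevalonate, which kinases and a decarboxylase turn into isopentenyl diphosphate. In mammalian liver most of these genes are known targets of the sterol regulatory element-binding proteins (SREBPs), which are released from the endoplasmic reticulum when its cholesterol is low and act with the CCAAT-binding factor NF-Y at promoters. Mitochondria hold a thiolase of their own, Acat1.

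The promoters of 4 genes with NF-Y boxes close to their transcript starts are shown. Mvk, which also has such boxes, is not shown. The 250 bases before the start are given as RefSeq lists them on GRCr8, in the direction of the gene, with CCAAT or its reverse complement in capitals. In Fdps the 8 bases in capitals between its CCAAT boxes match CACNCGAG, a form of sterol element that was searched for only after this sequence had been seen.
Hmgcs1, chr2:53382054-53382303, + strand: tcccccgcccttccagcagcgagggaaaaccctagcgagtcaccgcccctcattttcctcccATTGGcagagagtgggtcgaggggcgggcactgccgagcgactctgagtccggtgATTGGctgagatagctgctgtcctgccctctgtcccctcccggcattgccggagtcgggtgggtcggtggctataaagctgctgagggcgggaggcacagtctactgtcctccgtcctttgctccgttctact
Mvd, chr19:67414975-67415224, - strand: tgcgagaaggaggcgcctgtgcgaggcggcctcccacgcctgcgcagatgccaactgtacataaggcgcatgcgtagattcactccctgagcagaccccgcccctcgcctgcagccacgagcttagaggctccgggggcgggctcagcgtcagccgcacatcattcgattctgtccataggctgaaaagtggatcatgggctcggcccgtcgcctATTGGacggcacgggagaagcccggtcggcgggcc
Idi1, chr17:66547525-66547774, - strand: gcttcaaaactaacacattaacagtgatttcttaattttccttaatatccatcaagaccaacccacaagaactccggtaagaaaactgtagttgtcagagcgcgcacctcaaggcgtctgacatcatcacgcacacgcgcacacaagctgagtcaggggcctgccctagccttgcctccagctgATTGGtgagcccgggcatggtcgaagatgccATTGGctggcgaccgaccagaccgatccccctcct
Fdps, chr2:176804817-176805066, - strand: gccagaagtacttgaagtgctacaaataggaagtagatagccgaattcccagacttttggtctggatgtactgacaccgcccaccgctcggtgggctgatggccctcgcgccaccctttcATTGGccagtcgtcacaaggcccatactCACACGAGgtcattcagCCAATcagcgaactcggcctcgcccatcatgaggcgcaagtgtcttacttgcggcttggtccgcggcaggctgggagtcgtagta

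RefSeq promoter windows, from 250 bases before to 50 after the start, were matched by symbol for 7 of the genes. The NF-Y box CCAAT, on either strand, lay in 5 of these 7 windows (Hmgcs1, Mvk, Mvd, Idi1 and Fdps), against 37.5% of all 33469 windows of that length. Mvk held 5 copies and the other 4 genes held 2 copies each. The sterol regulatory element core CACNCCAC lay in 1 of the 7, Acat2, against 5.8% of all windows, and the E-box CACGTG in 0 of the 7 against 6.42%. CACNCGAG lay in 1 of the 7, Fdps, against 2.23%. Because it was searched for after the Fdps sequence had been seen, that match was fixed in advance and is no sign of enrichment. These matches describe letters in these windows and no binding was measured.

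All 8 genes had lower mean levels in the livers from the high-fat diet, with log2 changes from -3.35 (Aacs) to -0.82 (Mvk) and a median of -1.71, against 0.003 over all 18596 tested genes. Aacs, Pmvk, Idi1 and Fdps fell at an adjusted p under 0.05 by limma, while Acat2, Hmgcs1, Mvk and Mvd did not pass. Of all tested genes 0.527% passed in that direction. In 6 of the 8 genes every high-fat array lay below every control array, as in 6.26% of all tested genes, and the exceptions were Hmgcs1 and Mvk. Values are log2 intensities, with 0 at the 75th percentile, on that array, of the probes that all 8 arrays detected. A gene is given by its brightest probe, and levels of different genes cannot be compared on this scale. In bulk liver, fewer cells of a type and less RNA per cell cannot be told apart.

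**Figure D1:**
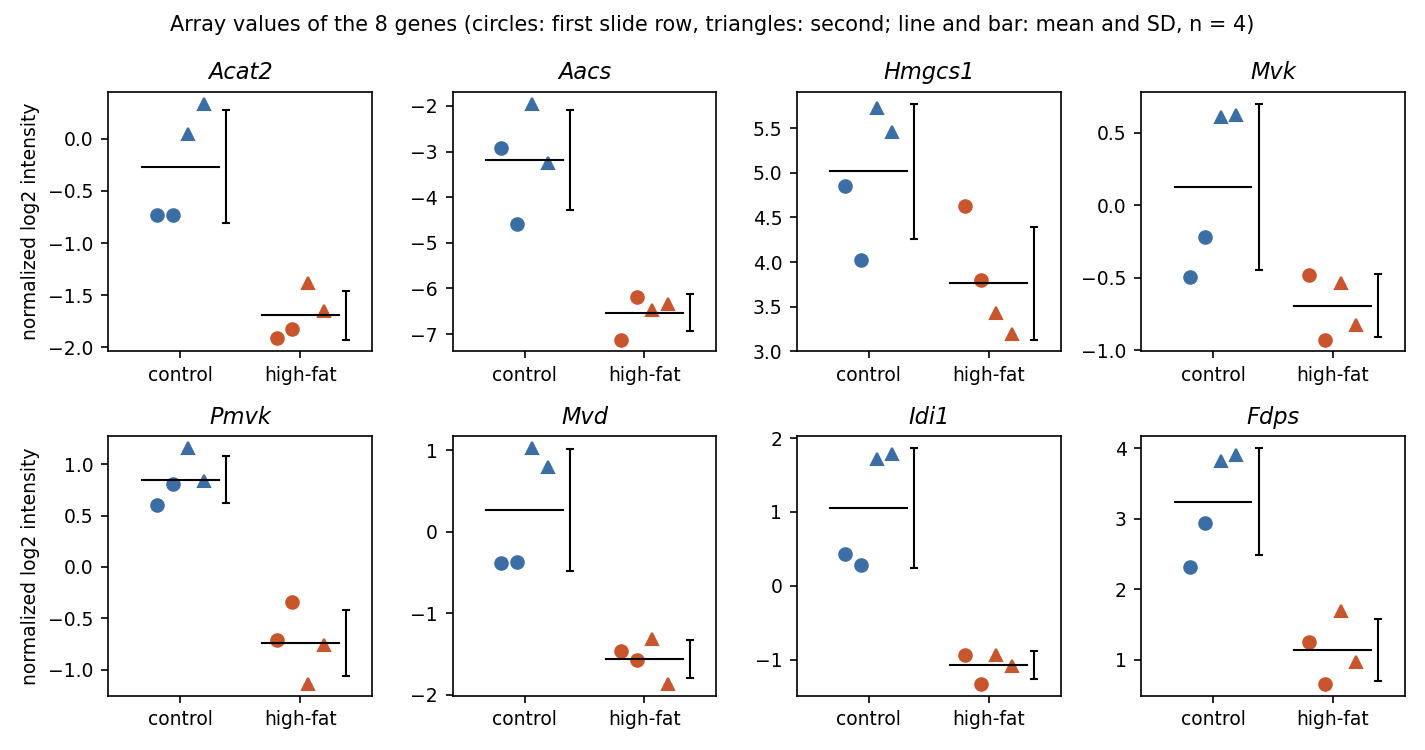
Normalized log2 intensity of each gene's brightest probe on each array, with control arrays in blue and high-fat arrays in orange. Circles are arrays of the first slide row, triangles those of the second, and lines and bars are the group mean and SD (n = 4). The groups do not overlap except in Hmgcs1 and Mvk, and control replicates 3 and 4 are the upper pair of controls in 7 of the 8 genes.

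At the entry to the pathway, Acat2 encodes the cytosolic thiolase that makes acetoacetyl-CoA. Its levels were -0.73, -0.73, 0.05 and 0.34 in control replicates 1 to 4 and -1.91, -1.83, -1.38 and -1.65 in high-fat replicates 1 to 4. The groups did not overlap, and the controls fell into a lower and an upper pair. The log2 change was -1.43 (95% interval -2.04 to -0.81; adjusted p = 0.055 by limma), which did not pass. A probe for the same RefSeq transcript that the array lists under the older name Acat3, and that the choice by name left out, had a log2 change of -1.52 (adjusted p = 0.061), also without overlap.

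Aacs, acetoacetyl-CoA synthetase, recycles acetoacetate into the cytosolic pool. Its levels were -2.93, -4.59, -1.95 and -3.26 in the controls and -7.12, -6.19, -6.47 and -6.33 on the high-fat diet. No array of either group reached the other group's range. The log2 change was -3.35 (95% interval -4.48 to -2.21; adjusted p = 0.032), or 10.2-fold lower, and a second probe on chr12:32207337-32207278 (rn4, as the files give it) had -3.37 (adjusted p = 0.031). The high-fat levels lay near background: the probe was well above it on 3 of the 4 high-fat arrays, replicate 1 being the exception. The change was -1.98 after another background correction (normexp with an added offset of 50), where Fdps had -2.11 and Idi1 -2.07. Such an offset by itself shrinks the log2 changes of dim probes more than those of bright ones.

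Hmgcs1 encodes the cytosolic HMG-CoA synthase. Its brightest probe, on chr2:51754514-51754573 (rn4), gave 4.85, 4.03, 5.73 and 5.46 in the controls and 4.63, 3.80, 3.43 and 3.19 on the high-fat diet. The groups overlapped, because high-fat replicate 1 lay above control replicate 2. The log2 change was -1.26 (95% interval -2.22 to -0.29; adjusted p = 0.21) and that of the second probe -1.48 (adjusted p = 0.19). Neither passed.

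Mevalonate kinase, Mvk, makes the first phosphorylation of mevalonate. Its levels were -0.50, -0.22, 0.61 and 0.62 in the controls and -0.48, -0.93, -0.54 and -0.83 on the high-fat diet. Control replicate 1 lay within the high-fat range, and control replicates 3 and 4 lay above every other array. The log2 change of -0.82 (95% interval -1.45 to -0.19; adjusted p = 0.21) was the smallest of the 8, with -0.85 for the second probe (adjusted p = 0.25).

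Pmvk, phosphomevalonate kinase, makes the next phosphorylation. Its levels were 0.60, 0.80, 1.16 and 0.83 in the controls and -0.71, -0.35, -1.14 and -0.76 on the high-fat diet. The groups were well apart, and Pmvk had the smallest control SD of the 8 genes, 0.23. The log2 change was -1.59 ± 0.20 (SE; adjusted p = 0.018), or 3.01-fold lower, and the probe on chr2:181664843-181664902 (rn4) had -1.61 (adjusted p = 0.018). The Pmvk probes had the lowest adjusted p of the 15.

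Mvd, the decarboxylase that forms isopentenyl diphosphate, had levels of -0.39, -0.37, 1.02 and 0.79 in the controls and -1.46, -1.58, -1.32 and -1.87 on the high-fat diet. The groups did not overlap, and the controls again fell into pairs of 2 low and 2 high arrays. Its brightest probe had a log2 change of -1.82 (95% interval -2.61 to -1.04; adjusted p = 0.055), which did not pass, while the dimmer probe on chr19:52722463-52722404 (rn4) had -1.91 and passed (adjusted p = 0.039).

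Idi1, the isomerase that turns isopentenyl into dimethylallyl diphosphate, had levels of 0.43, 0.28, 1.72 and 1.79 in the controls and -0.94, -1.33, -0.94 and -1.09 on the high-fat diet. The high-fat arrays lay close together and the control pairs far apart, with SDs of 0.19 and 0.81. The log2 change of the probe on chr17:72557282-72557223 (rn4) was -2.13 (95% interval -2.96 to -1.30; adjusted p = 0.043), or 4.37-fold lower. A second, dimmer probe had -1.80 (adjusted p = 0.097) and did not pass. The related gene Idi2 was well above background on 0 arrays.

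Fdps joins these units to farnesyl diphosphate. Its levels were 2.31, 2.94, 3.82 and 3.91 in the controls and 1.25, 0.66, 1.69 and 0.97 on the high-fat diet. The lowest control lay above the highest high-fat array. The log2 change was -2.10 (95% interval -2.97 to -1.23; adjusted p = 0.0495), or 4.29-fold lower, and the second probe, at chr2:181168691-181168650 (rn4), also had -2.10 (adjusted p = 0.030).

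The array also holds probes for predicted copies of Fdps, and the brightest Fdps probe, which the files place at chr2:181170336-181170192 (rn4), shares 23 bases in a row with the probe of the copy RGD1560208. Both 60-base probes are shown with their longest shared run in capitals.
Fdps probe: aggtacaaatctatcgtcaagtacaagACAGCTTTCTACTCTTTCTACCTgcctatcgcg
RGD1560208 probe: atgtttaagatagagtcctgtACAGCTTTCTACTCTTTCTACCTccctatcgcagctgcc
The second Fdps probe shares at most 5 bases in a row with the probes of any of 3 such copies, and its log2 change was the same to 2 decimals. Probes were compared only with probes, not with the transcripts of the copies. Short shared runs therefore cannot show that an Fdps probe is free of signal from a copy. The copies had log2 changes of -2.32 (RGD1560208), -2.08 (XM_228802) and -0.94 (LOC501976), without overlap between the groups and with none past the threshold. How far each copy's probe reads Fdps RNA, or an Fdps probe reads RNA of a copy, was not tested.

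Over all probes of the 8 genes, all 15 log2 changes were negative, from -3.37 to -0.82, and 8 passed the threshold, against 0.529% of all tested probes in that direction. The groups did not overlap for 11 of the 15 probes, against 5.47% of all tested probes. Probes of the same gene gave like sizes, and in Mvd and Idi1 they fell on different sides of the threshold. Calls near the threshold depended on single arrays: 4 of the 8 genes passed with all arrays, against 2, 1, 0 and 1 when control replicate 1, 2, 3 or 4 was left out and 1, 1, 1 and 0 when high-fat replicate 1, 2, 3 or 4 was. Pmvk passed in 5 of these 8 fits, Aacs and Fdps in 1 each and Idi1 in 0. The median log2 change of the 8 genes stayed between -1.86 and -1.53 in them.

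**Figure D2:**
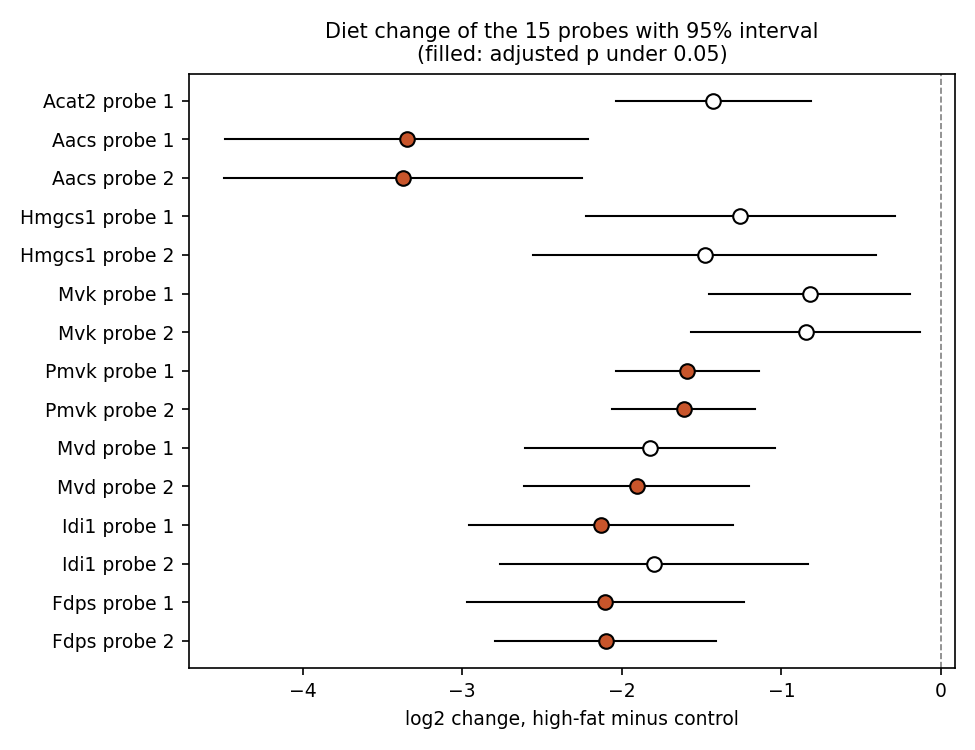
Log2 change (high-fat minus control) of the 15 probes with 95% intervals, with probe 1 the brightest of each gene and filled points at an adjusted p under 0.05. All intervals lie below 0, and the Aacs probes are farthest from it, at -3.35 and -3.37.

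The controls of these genes differed between the 2 rows of the slide. The arrays shared 1 slide of 2 rows, and each row held 2 control and 2 high-fat arrays. Replicates 1 and 2 of both groups were in the first row and replicates 3 and 4 in the second. Place on the slide therefore cannot be told apart from the order or the source of the samples. In 7 of the 8 genes both controls of the second row (replicates 3 and 4) lay above both controls of the first (replicates 1 and 2), against 19% of all tested genes, and the exception was Aacs. The mean of the second-row controls was higher by 0.29 (Pmvk) to 1.40 (Idi1), with a median of 1.15. For the high-fat arrays the same difference ran from -0.91 (Hmgcs1) to 0.37 (Fdps). Over all tested genes the median difference between the control rows was -0.01. The highest control was replicate 3 or 4 and the lowest was replicate 1 or 2 in all 8 genes. By the brightest probes the control SD was larger than the high-fat SD in 7 of the 8, and Pmvk was the exception. The ratio in the 7 ran from 1.20 times in Hmgcs1 to 4.38 times in Idi1. These spreads depended on the probe. The second Pmvk probe had SDs of 0.34 in the controls and 0.22 on the high-fat diet, and the second Hmgcs1 probe 1.04 and 0.35.

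The diet difference was therefore given within each row, as values of 2 arrays against 2 with no test. All 8 genes were lower on the high-fat diet in both rows, by a median log2 change of -1.19 in the first and -2.39 in the second, and the change in the second row was the larger in all 8. Hmgcs1 had -0.23 and -2.29, and Mvk had -0.35 and -1.30. Aacs, Idi1 and Fdps had -2.90, -1.49 and -1.67 in the first row and -3.80, -2.77 and -2.53 in the second. The groups did not overlap in 6 of the 8 genes in the first row and in all 8 in the second, with lower values on the high-fat diet, as in 22.3% and 22.9% of all tested genes. The difference between rows was tested as an interaction of diet and row in limma, a test added after the data were seen. It had an unadjusted p under 0.05 for 9 of the 15 probes, against 5.77% of all tested probes. Probes of a gene are repeat readings on the same arrays, and by the brightest probes 4 of the 8 genes had such a p. After adjustment the interaction passed for none of the 15 and for 0 (0%) of the 31459 probes tested. Among the genes' brightest probes, Idi1 had an interaction of -1.28 (95% interval -1.97 to -0.59; adjusted p = 0.76) and Hmgcs1 of -2.06 (95% interval -3.32 to -0.80; adjusted p = 0.76). With the row as a block 5 of the 8 genes passed, all lower, against 0.339% of all tested genes in that direction. What sets the control rows apart was not tested.

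**Figure D3:**
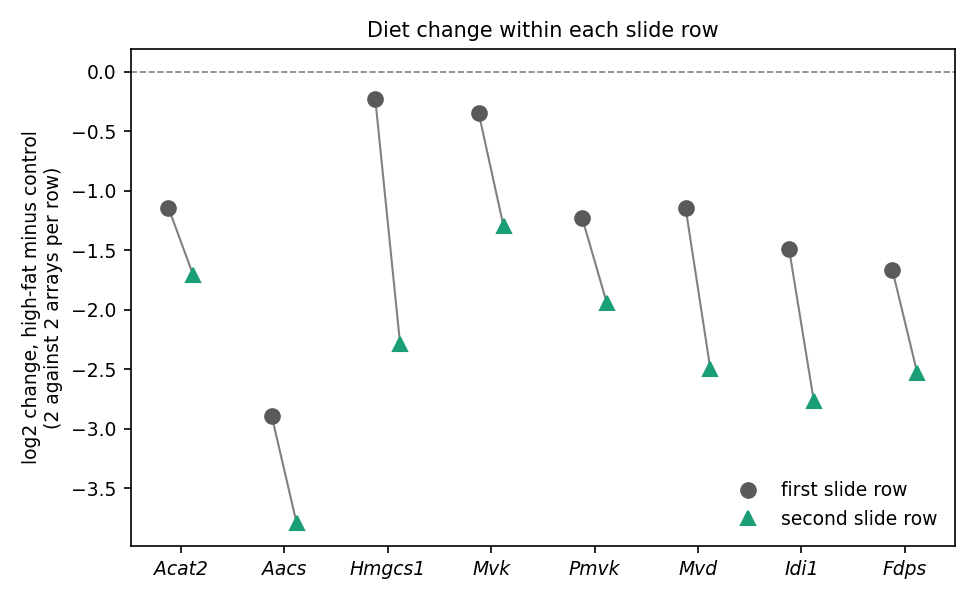
Log2 change (high-fat minus control) of each gene within the first slide row (circles) and the second (triangles), each from 2 against 2 arrays. All points lie below 0, and the second row is lower than the first in all 8 genes, most widely in Hmgcs1 (-0.23 and -2.29).

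To describe how closely the genes followed each other beyond the diet, each array's deviation from its group mean was set against the mean deviation of the other 7 genes over the 8 arrays. The arrays share the slide row split, and the values are a description. Pearson's r was 0.97 for Mvd, 0.96 for Idi1, 0.89 for Mvk, 0.81 for Acat2, 0.73 for Fdps, 0.67 for Hmgcs1, 0.48 for Aacs and 0.30 for Pmvk. By its brightest probe, Pmvk, the gene with the lowest adjusted p, followed the others least. The second Pmvk probe was not set against them. Its levels were 0.31, 0.49, 0.97 and 0.97 in control replicates 1 to 4, a lower and an upper pair. Among 12257 other genes with a symbol, those most like the mean deviation of the 8 were Stc1 (r = 0.98), Srp9 (r = 0.97), Pdp1 (r = 0.97), Pacap, now Mzb1 (r = 0.96), and Tspan8 (r = 0.96), against a median of -0.003 and a 95th percentile of 0.73 over all of them. None of these 5 passed the diet test. The late sterol genes had a median r of 0.74 and the genes of the isoprenoid branch -0.01.

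Farnesyl diphosphate goes on to sterols through the late sterol pathway and to other isoprenoids through prenyl transferases and their partners. Of 12 tested genes of the late sterol pathway, all 12 had negative log2 changes, with a median of -1.57, as had 49.5% of all tested genes. In 9 the groups did not overlap, with lower values on the high-fat diet, as in 6.26% of all tested genes. Past the threshold 4 fell, against 0.527% of all tested genes, and none rose. The 4 were Sqle, squalene epoxidase, with -3.15 (adjusted p = 0.035), Hsd17b7, a sterol ketone reductase, with -1.73 (adjusted p = 0.036), Dhcr7, which reduces 7-dehydrocholesterol, with -1.77 (adjusted p = 0.038), and Cyp51, lanosterol demethylase, with -1.63 (adjusted p = 0.042), all by limma. Fdft1, squalene synthase, which commits farnesyl diphosphate to sterols, had -1.23 (adjusted p = 0.064). Within rows the list's median was -0.93 and -1.75. The number passing was 2, 2, 0 and 0 when control replicate 1, 2, 3 or 4 was left out and 0, 0, 1 and 0 for high-fat replicate 1, 2, 3 or 4. Lbr was not well above background on enough arrays to be tested.

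Of 13 tested genes that use farnesyl diphosphate or its products for prenylation, ubiquinone or dolichol, 0 passed by limma in either direction. Their log2 changes lay between -0.49 and 0.22, with a median of -0.05. Icmt, which methylates prenylated proteins, had -0.33 (95% interval -0.63 to -0.02; adjusted p = 0.29) and was 1 of 2 with an unadjusted p under 0.05. Of all 18596 tested genes 2901 had such a p. The other tested probes of Icmt had log2 changes of 0.01 and -0.04. The protease Zmpste24 was the other gene with an unadjusted p under 0.05, at -0.39 (adjusted p = 0.32), and its second probe had -0.09. Rabggtb, a subunit of the Rab geranylgeranyl transferase, had -0.19 (adjusted p = 0.51), and Rce1, which trims prenylated proteins, had -0.19 (adjusted p = 0.52). Pdss1 was not among the gene names used here.

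**Figure D4:**
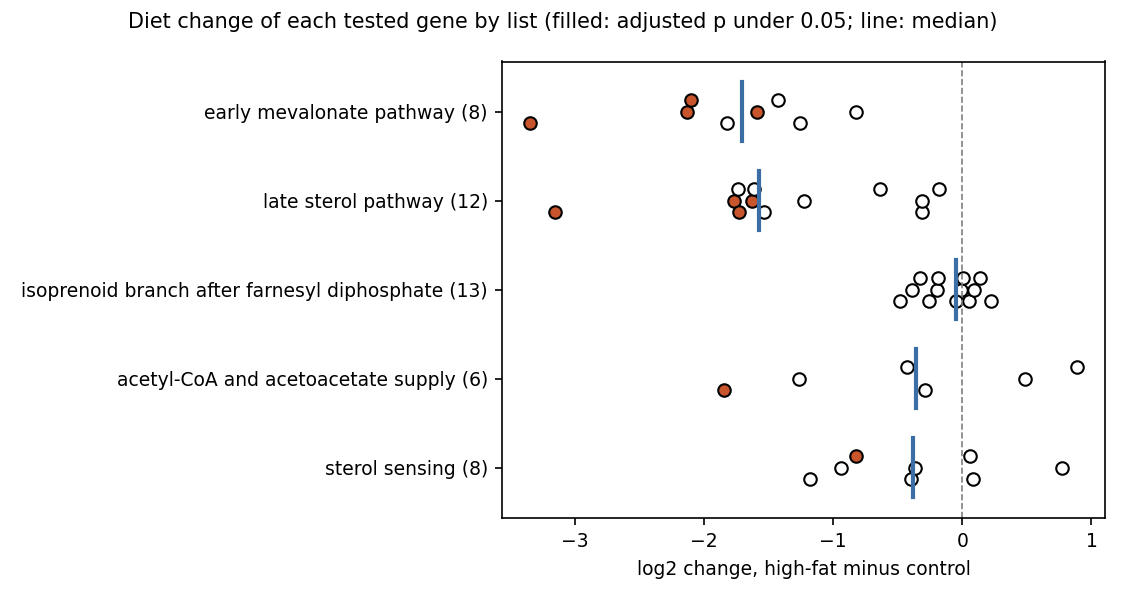
Log2 change (high-fat minus control) of every tested gene of the early mevalonate pathway and of 4 neighbouring lists, with the number tested in brackets, filled points at an adjusted p under 0.05 and blue lines at the medians. The medians are -1.71 and -1.57 for the early and late pathway and -0.05 for the isoprenoid branch.

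Upstream, the 6 reported genes that supply acetyl-CoA or handle acetoacetate had a median log2 change of -0.36, with 1 lower, 0 higher and 5 that did not pass. Acly, ATP citrate lyase, the source of cytosolic acetyl-CoA from citrate, fell by 1.84 on the log2 scale (95% interval -2.28 to -1.40; adjusted p = 0.015). Acss2, which makes cytosolic acetyl-CoA from acetate, had -1.26 (adjusted p = 0.064) without overlap. Acat1 had 0.49 (adjusted p = 0.18), without overlap and higher on the high-fat diet. Bdh1, which interconverts the ketone bodies, had 0.89 (adjusted p = 0.25).

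The cytosolic and the mitochondrial thiolase were set against each other within each array, which asks whether their log2 changes were unequal. The size of such a difference compares different probes and has no meaning, and only its shift between diets is read. The difference of Acat2 minus Acat1 was 0.17, -0.16, 0.68 and 0.94 in the controls and -1.81, -1.42, -1.43 and -1.35 on the high-fat diet. The groups did not overlap, and the shift was -1.91 (exact two-sided permutation p = 0.0286, the smallest that 4 against 4 allows; adjusted p = 0.0571 over 2 comparisons of this kind, of which 1 is reported). It did not pass after adjustment. At the smallest possible p, the adjusted value depends only on the number of comparisons and on the result of the other one. Whether it falls under 0.05 therefore says nothing further about this shift. Within the rows the shift was -1.63 and -2.20. Over the other settings the exact permutation test gave an adjusted p of 0.0286 without control replicate 2 (a shift of -2.10, at the smallest p that 3 against 4 allows) and 0.0571 without any other single array. The move between these adjusted values again turns on the other comparison and is no evidence about the thiolases. It gave 0.111 with slide row as a block, 0.2 without control replicate 1 and high-fat replicate 1, and 0.25 with the replicate number as a block. These settings have only 36, 20 and 16 permutations, too few for any two-sided p under 0.05. They therefore cannot show whether the shift weakens.

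**Figure D5:**
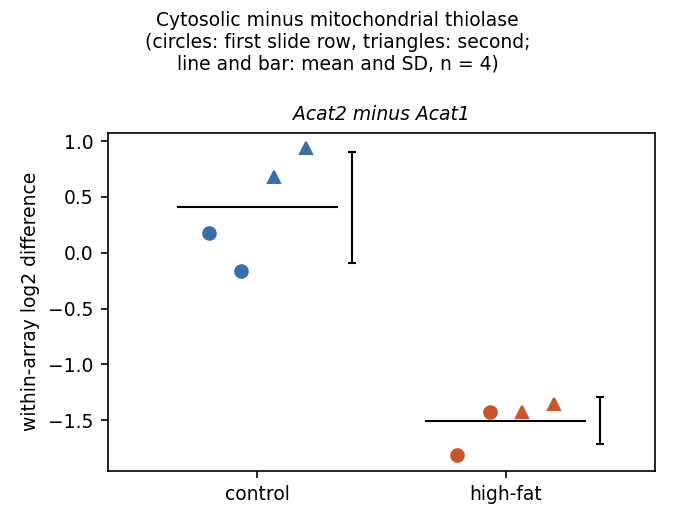
Within-array log2 difference between the probes of the cytosolic (Acat2) and the mitochondrial (Acat1) thiolase, by diet. Circles are arrays of the first slide row and triangles those of the second, with group mean and SD (n = 4). The groups do not overlap, and high-fat replicate 1, at -1.81, is the lowest array.

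Among 8 genes that sense or regulate sterols, 1 fell, 0 rose and the median log2 change was -0.38. Srebf2, which encodes the SREBP that acts most on cholesterol genes, fell by 0.82 on the log2 scale (95% interval -1.16 to -0.48; adjusted p = 0.049), and its call was lost in 15 of 20 alternative settings, among them the removal of any 1 array (adjusted p from 0.070 to 0.13). Insig1, which holds SREBPs in the endoplasmic reticulum, had -1.18 (95% interval -2.40 to 0.05; adjusted p = 0.34). Insig2, its homologue, had 0.77 (adjusted p = 0.32), and Scap, the sterol-sensing escort of SREBPs, -0.36 (adjusted p = 0.31). Soat2, which esterifies cholesterol in liver and is often also called ACAT2 although it is no thiolase, had -0.19 (adjusted p = 0.62).

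An array had 50.4% to 71.9% of its probes well above background. Control replicate 1 (50.4%) and high-fat replicate 1 (56.4%) were the lowest, and without these 2 arrays 0 of the 8 genes passed, with a median log2 change of -1.88. Of 17 clock genes, which follow the hour of day, 15 had positive log2 changes with a median of 0.58, and 0 passed by limma (6 at an unadjusted p under 0.05). Over all 18596 tested genes 2901 had an unadjusted p under 0.05 by limma, and in 2071 the groups did not overlap, in either direction. All 8 hepatocyte markers were detected, at a mean level of 5.67 to 6.05 on every array and a median log2 change of -0.05. By limma 0 of them passed, and 5 had negative log2 changes. Cps1, the 1 with an unadjusted p under 0.05, had 0.98 (adjusted p = 0.20), and its second probe had 0.92. By their brightest probes the 7 Kupffer cell and macrophage markers all had negative log2 changes, with a median of -0.26. By limma 0 of them passed (3 at an unadjusted p under 0.05). Marco (-2.38), Vsig4 (-0.78) and Clec4f (-0.60) did not overlap between groups, while second probes of Cd163 and Emr1 had 0.12 and 0.25. The summed linear level was 22.5 to 29.9 in the controls and 11.1 to 20.0 on the high-fat diet. Clec4f, the brightest, weighs most in it, with mean log2 levels of 3.73 and 3.13. Of 6 lymphocyte markers 1 fell (Cd3g), with summed levels of 0.736 to 1.09 and 0.402 to 0.631. Of these 6, 4 had negative log2 changes and 3 had an unadjusted p under 0.05 by limma. Cd3g and Cd3d (-0.70, adjusted p = 0.076) did not overlap between groups. Of 7 stellate cell markers 1 rose (Reln) and 3 had negative log2 changes, with a median of 0.08. The sums were 2.47 to 3.17 and 4.56 to 5.25. They follow mostly the brightest probe, Colec11, with mean log2 levels of 1.06 in the controls and 1.78 on the high-fat diet. Des at -0.70 (adjusted p = 0.13) and Colec11 at 0.72 (adjusted p = 0.078) did not overlap between groups. The 3 tested erythroid markers had a median of 1.05, with summed levels of 9.58 to 28.6 and 26.9 to 39.0, and 0 of them passed by limma (2 at an unadjusted p under 0.05). The 6 endothelial markers had values on both sides of 0, from -0.58 (Clec4g) to 0.96 (Lyve1), a median of -0.01 and summed levels of 7.83 to 14.6 and 11.1 to 15.8. By limma 0 of these 6 passed (3 at an unadjusted p under 0.05), and Lyve1 (adjusted p = 0.071) and Stab2 (0.60, adjusted p = 0.16) did not overlap between groups. Of the adipocyte markers, Cidec had 0.67 (adjusted p = 0.13) without overlap and Cfd -0.13 (adjusted p = 0.80), while Adipoq and Lep were not well above background on enough arrays to be tested. What part these cell markers, the clock genes and the dim arrays have in the changes of the mevalonate genes was not tested.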

How the data were processed

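Liver RNA of 8 samples was measured on 1-colour Agilent arrays, and the titles of the samples gave groups and replicate numbers. Whether every sample is its own animal is not given in the labels, and the p-values cover only the spread seen among the 8. The intensity of each spot was read with Agilent Feature Extraction 10.7.3.1, per the file headers, with background correction. The value table deposited by the authors is in log2, and its scaling is not given in the sources used here. Its columns, with medians from -3.21 to -3.10, correlated at 0.999 or more with scanner values scaled by the 75th percentile over every non-control probe. It served as an alternative.

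Control spots and outlier spots were left out, and spots of a probe were averaged. The log2 processed signal was set relative to each array's 75th percentile over the probes that were well above background throughout the 8 arrays (48.0% of 46883). A probe was tested if at least 4 arrays had it well above background, which left 31547 probes under 18596 gene names. The test was limma 3.58.1 (lmFit, eBayes) in R 4.3.3, adjusted by Benjamini-Hochberg over every tested probe, with a threshold of 0.05. The number of arrays limits the precision. The script was tested on simulated data. The thiolase difference was tested by exact permutation. Coordinates of probes are on rn4 as deposited, and all 15 accessions matched the GRCr8 RefSeq table, used for names. Promoter sequences and motifs are from RefSeq (GRCr8).

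The genes, lists and tests were chosen with earlier results of these data known. Genes named are the 8 members, up to 4 genes with the smallest p of each list, a fixed set (Srebf2, Insig1, Acly, Acss2, Acat1 and Soat2; others are not reported here) and the 5 most alike in deviation. Fdft1, the Fdps copies, and the cell markers given by name were named after their values were seen. Of the clock list only the summary is given. Same-numbered samples of the groups had correlations of deviations of -0.12, 0.26, 0.23 and 0.01, so the numbers were not taken to pair them. Alternatives changed background correction, scaling, filter, gene summary, variance model, array weights, blocks, threshold and the arrays used.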

Additional observations from a re-analysis of the deposited data

Results flagged for a closer look

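Of 74 sets of 4 arrays examined, for each diet of each named probe and of the thiolase difference, 2 held an array far from the other 3 by Dixon's ratio, and chance alone sets apart about 1 in 20. The difference of Acat2 minus Acat1 was -1.81 on high-fat replicate 1 and -1.43 to -1.35 on the other high-fat arrays. Rce1 was at -0.23 on high-fat replicate 4 and at 0.00 to 0.02 on the others. None of the 15 probes of the 8 mevalonate genes was set apart in this way.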

How the results depend on the processing

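No log2 change of the 8 genes changed sign in any of the settings run. The call was lost in 10 of 19 settings for Aacs, 6 of 20 for Pmvk, 12 of 20 for Idi1 and 11 of 20 for Fdps, and gained in 6 of 20 for Acat2 and 6 of 20 for Mvd; Hmgcs1 and Mvk passed in none of 20. Aacs had no value when probes had to be well above background on all 8 arrays. Of the 8 genes and their 15 probes, 0 and 0 passed without a filter on dim probes (5 genes and 10 probes of all tested), 0 and 0 at a threshold of 0.01 (5 and 10), and 0 and 1 without control replicate 1 and high-fat replicate 1 (14 and 25). With the replicate number as a block 0 of the 8 genes and 0 of their probes passed, as did 1 gene and 1 probe of all tested. Counts over all genes and all probes were 98 and 167 with slide row as a block, 506 and 838 at a threshold of 0.1, 327 and 532 with a variance trend and 330 and 527 with detection required on all 8 arrays, and 254 genes passed after normexp. Leaving out 1 array gave 0 to 2 of the 8 genes, 0 to 4 of their probes, 16 to 91 of all genes and 23 to 154 of all probes, a median log2 change of -1.86 to -1.53, and a shift of Acat2 minus Acat1 of -2.10 to -1.74. Within the slide rows the median was -1.19 and -2.39. The causes were not tested. Other scalings moved the median of all genes by at most 0.05. Signal near background limits the size of the Aacs change.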
